A study of Schmidtea mediterranea with 5 samples.

Results

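The transcripts described here are those of the planarian flatworm Schmidtea mediterranea whose level was at least 2-fold up after 8 days of light and less than 2-fold up after 8 days back in the dark. Of the 82843 transcripts in the deposited table, 21307 had a mean of at least 1 CPM (reads per 1000000 reads of a library) over the 5 libraries, and light exposure placed 137 of these 2-fold or more over the dark control. In 88 of the 137 the level after 8 days in the dark was less than 2 times the control, and these 88 are the members; the other 49 stayed at least 2-fold up. All ratios used for this choice were taken on the CPM + 1 scale of the deposited table, which understates differences of low transcripts. The members were therefore selected on 3 libraries (dark control, light, and 8 days back in the dark), and their order in those 3 is a description. The 1-day and 2-day dark-return libraries played no part in the choice beyond the mean level.

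Planarians carry a brown dorsal pigment, made by pigment cells that lie under the epidermis and hold ommochrome and porphyrin pigments. Porphyrins are sensitizers that turn light into reactive oxygen, and prolonged strong light removes the pigment of these animals. Pigment cells, like the other cells of a planarian, are renewed by dividing stem cells called neoblasts, so colour can come back in the dark. RNA of whole animals mixes all cell types, and more cells of a type and more RNA per cell cannot be told apart.

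Every animal belonged to the clonal asexual CIW4 strain, was wild type, and had been starved for 1 week before collection. One group was untreated and kept in the dark, one was collected at the end of 8 days of light, and 3 groups were collected 1, 2 or 8 days after light-treated animals had gone back into the dark. Each group is 1 library made from a mixture of 3 biological replicates, so the spread between animals was not measured and no p-value is given. Per the design text the dark-return animals were starved, so time without food and time in the dark cannot be told apart. Libraries held 38447289 to 50045371 reads, and the light library was the shallowest. The step of a single read was 0.020 to 0.026 CPM, and a count of 0 allows up to 0.060 to 0.078 CPM. The intervals given are 95% exact binomial (Clopper-Pearson) intervals of a ratio of CPM and cover counting error only. The transcripts are contigs known here by number alone, without gene names, so roles of single members cannot be given and the lists of pathway and marker genes could not be applied.

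In light, the members stood 2.00- to 11.8-fold above the control on the CPM + 1 scale, with a median log2 ratio of 1.17, and 0.643% of all transcripts reached 2-fold there, a contrast that chose the members. Their levels in the control ran from 0.181 to 3375 CPM with a median of 5.94 CPM, and in light from 2.29 to 9005 CPM with a median of 14.5 CPM. In the control 15 of the 88 were under 1 CPM, and 63 had a mean of at least 5 CPM. Together they took 0.547% of the reads in the control and 1.44% in light. Their share was 0.659%, 0.633% and 0.518% at 1, 2 and 8 days of dark return. That sum was dominated by a single transcript, SmedASXL_012104, which held 61.7% of the members' reads in the control and 62.5% in light but 32.7% after 1 day. Without it, the other 87 summed to 2094 CPM in the control, 5394 CPM in light, and 4435, 4172 and 2955 CPM at the 3 later times.

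How soon each member came down was judged by the same limit as at 8 days, a level under 2 times the control. After 1 day 40 of the 88 were under it and 48 were not; 0.746% of all transcripts stood at least 2-fold over the control in that library. After 2 days 52 were under it and 36 were not, against 0.526% of all transcripts at least 2-fold over. Of the 40, 37 were under the limit at both times and 3 were over it again at 2 days. Of the other 48, 15 first came under it at 2 days and 33 at 8 days. The limit is close to many members: 25 of the 88 lay between 1.8 and 2.2 times the control after 1 day. The counting interval of the CPM ratio spanned 2 for 27 of the 40 and 5 of the 48. For 15 of the 40 the ratio of CPM itself was at least 2, so that they count as down only on the CPM + 1 scale. Some members first under the limit at 2 days likewise count as down then only on that scale.

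A second measure, the share of the log2 distance from light back to the control, divided the 40 further. After 1 day 9 of them had covered at least 50% of that distance, from 52.0% to 145.5%, while the remaining 31 had covered 7.93% to 47.8%. None of the 48 later members had covered 50% after 1 day (highest 38.1%). For most of them this follows from the grouping. A member still at 2 times the control can be halfway back only if light was at least 4 times the control. The upper quartile of that light ratio was 3.08 among the 48. The gap between the 2 groups of the 40 is narrow. In light the median log2 ratio to the control was 1.42 for the 9, 1.08 for the 31 and 1.39 for the 33 that came down at 8 days.

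**Figure D1:**
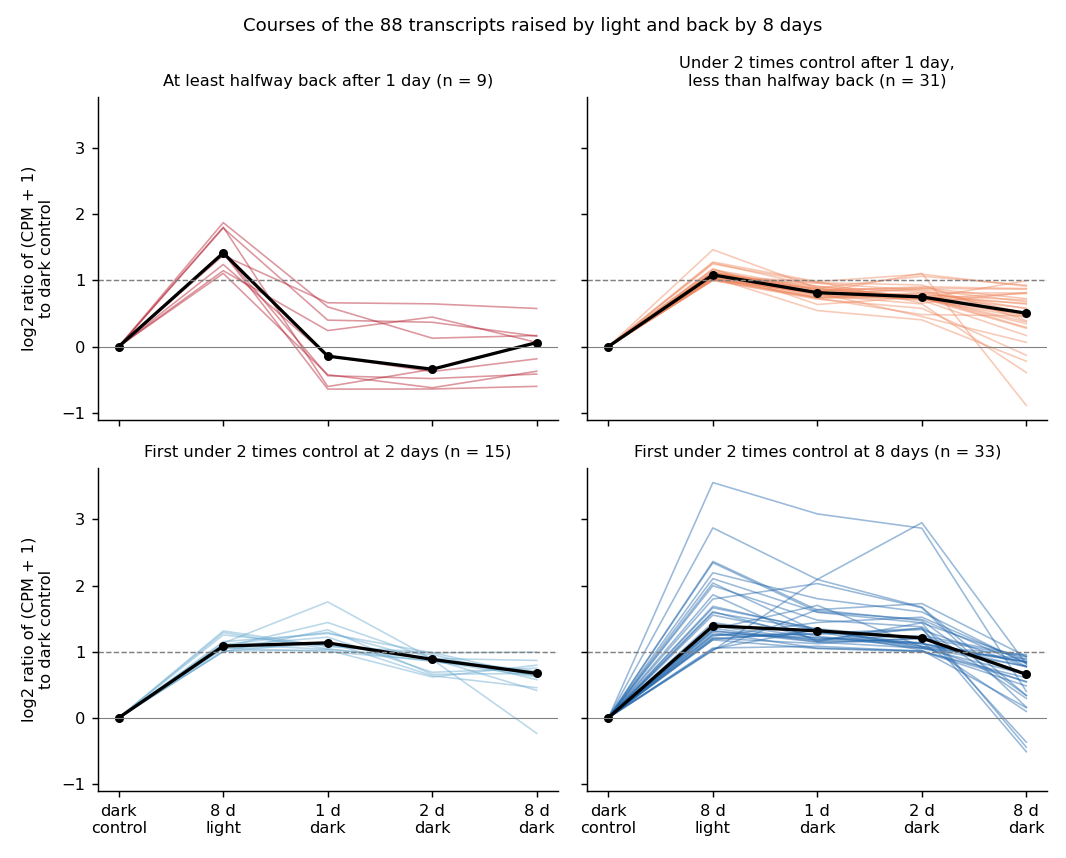
Each thin line is 1 member and the black line is the median; the y axis is the log2 ratio of (CPM + 1) to the dark control, the x axis lists the 5 libraries, and the dashed line marks 2-fold. The 9 members at least halfway back after 1 day (top left) are all highest in the light library, and some stay between light and control afterwards. The 33 in the lower right panel stay over 2-fold through 2 days.

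In the 9 members that were at least halfway back after 1 day, the light library was the highest of the 5, and on the CPM + 1 scale the other 4 libraries lay within 2-fold of each other. On the plain CPM scale this did not hold for 3 of the 9, SmedASXL_030307, SmedASXL_036003 and SmedASXL_075251. After 1 day SmedASXL_030307 stood 2.72-fold (1.57 to 4.88) and SmedASXL_036003 2.49-fold (1.23 to 5.37) over the control. After 2 days the ratios to the control were 1.30 (0.703 to 2.47) and 2.36 (1.18 to 5.03), and that of SmedASXL_075251 was 2.09 (1.25 to 3.62). Set against light, the median log2 ratio of the 9 was -1.39 at 1 day, -1.73 at 2 days and -1.64 at 8 days. Against the control the medians were -0.14, -0.34 and 0.06. The low 1-day level is what formed this group and is no finding. After 1 day 7 of the 9 were at least 2-fold under the light library. No other member was that far below light at that time, when 0.0422% of all transcripts were that far under light, a share that gives no reference for a group picked on this difference. The light library stood at least 2-fold over every other library for 7 of the 9. The spread between pools was not measured, so whether another light-treated pool would hold the same high values was not tested.

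SmedASXL_012104 was the most abundant member and belonged to these 9. It stood at 3375 CPM in the control, 9005 CPM in light, and 2159.5, 2162 and 2224 CPM at 1, 2 and 8 days of dark return. Light was high and the 3 dark-return libraries were level, all of them under the control. The ratio of light to control was 2.67 (2.65 to 2.68) and that of 1 day to control was 0.640 (0.635 to 0.645). Its 346228 reads in light were 0.901% of that library.

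SmedASXL_076122 was lowest after 1 day relative to light. It stood at 4.00 CPM in the control, 16.5 CPM in light, and 2.28, 2.94 and 4.21 CPM after 1, 2 and 8 days. Light stood alone on the high side, 7.21-fold over 1 day (5.82 to 9.01), and the 8-day value was near the control. Between those times it was low: the ratio to control was 0.572 (0.442 to 0.736) after 1 day and 1.05 (0.856 to 1.30) after 8 days. Altogether 5 of the 9 were under the control at 1 day with intervals that exclude 1, and 4 of the 9 were so at 8 days.

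SmedASXL_075251, the member with the lowest mean (1.04 CPM), was also one of the 9, on 22 reads in the control, 89 in light, and 33, 52 and 27 after 1, 2 and 8 days. A transcript just outside the membership, SmedASXL_064188, was also high in light and low at 1 and 2 days. It had 443 reads in the control, stood at 43.9 CPM in light, 4.39 times the control (3.95 to 4.88), and was at 8.13 and 8.81 CPM after 1 and 2 days. After 8 days it was higher again at 21.2 CPM, 2.41 times its 2-day level (2.15 to 2.70) and 2.02 times the control on the CPM + 1 scale, which placed it among the 49. It was the sole one of the 49 at least 50% of the way back after 1 day.

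The 31 members that were under 2 times the control after 1 day without being halfway back moved in small steps. Set against light, the median log2 ratio was -0.28 at 1 day, -0.35 at 2 days and -0.54 at 8 days. By the way the group was formed, all 31 had to be lower than light and above the control after 1 day, so the small 1-day step is no finding. The interval excluded 1 for 25 of the 31 against light and for all 31 against the control. After 8 days 24 of the 31 remained above the control by that measure and 4 were under it.

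SmedASXL_018703, the second most abundant member, belonged to these 31. It stood at 299 CPM in the control, 606 CPM in light, and 502, 519.7 and 467 CPM after 1, 2 and 8 days. The 3 dark-return values lay close together, between light and control, and after 8 days it was 37.0% of the way back. The ratio to the control was 2.03 (1.98 to 2.07) in light and 1.56 (1.53 to 1.59) after 8 days.

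SmedASXL_004568 shows how little a member needed to move. It stood at 2.73 CPM in the control, 6.50 CPM in light, and 5.55, 5.18 and 6.44 CPM after 1, 2 and 8 days. The 8-day and light values cannot be separated (ratio 0.990, 0.835 to 1.17), and it is a member only because 1.99 is under 2 on the CPM + 1 scale. On the plain CPM scale its ratio to the control after 8 days was 2.36 (1.90 to 2.93). Of all 88 members, 20 were at least 2 times the control after 8 days on the plain CPM scale, and 19 of these 20 had under 10 CPM in the control.

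SmedASXL_004381 took the opposite course at the end. It stood at 14.1 CPM in the control, 29.5 CPM in light, 25.6 and 31.6 CPM after 1 and 2 days, and 7.15 CPM after 8 days. The first 3 values after the control were high together and the last was the lowest of the 5, 0.506 times the control (0.443 to 0.579). On the CPM + 1 scale it was the lowest of all members relative to the control at 8 days. With SmedASXL_012870, at 114 CPM in the control, 277 CPM in light, and 225, 244 and 215 CPM afterwards, it was among the 3 that crossed the limit at 1 day and were over it again at 2 days. SmedASXL_012870 had the highest ratio under the limit at 1 day, 1.97, and SmedASXL_007951 the lowest ratio over it, 2.00 on the CPM + 1 scale. The latter stood at 55.4 CPM in the control, 116 CPM in light, and 112, 102 and 88.8 CPM afterwards. The ratio of 1 day to light was 0.813 (0.791 to 0.836) for SmedASXL_012870 and 0.965 (0.926 to 1.01) for SmedASXL_007951.

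Most of the 15 members that first came under the limit at 2 days were no lower after 1 day than in light. Medians of the log2 ratio to light were 0.06 at 1 day, -0.25 at 2 days and -0.48 at 8 days. In 10 of the 15 the 1-day library was the highest of all 5, and in 6 it was above light with an interval that excludes 1; 2 were below light by that measure. A lower level at 2 days than at 1 day is required of this group by the way it was formed. So is a 1-day level of at least 2 times the control. Light was only 2.00 to 2.48 times the control in the 15 on the CPM + 1 scale, so a 1-day level far below light was not possible.

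The largest such difference belonged to SmedASXL_066978, at 2.17 CPM in the control, 5.93 CPM in light, and 9.67, 4.88 and 3.94 CPM after 1, 2 and 8 days. The 1-day library was high by itself, 1.63 times light (1.38 to 1.93), and 2 days was 0.504 times 1 day (0.429 to 0.592). SmedASXL_078472 had the same form, at 8.51 CPM in the control, 18.0 CPM in light, and 22.9, 14.0 and 14.1 CPM after 1, 2 and 8 days. Its 2-day level was 0.611 times the 1-day level (0.554 to 0.674). It was also the member nearest the lower limit for light, at 2.0004 times the control; on the other side of that limit, SmedASXL_018725 reached 1.995 times, with 114 CPM in the control and 228 CPM in light.

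The highest ratios of light to control among the 15, on the CPM + 1 scale, belonged to SmedASXL_072993 and SmedASXL_011735. SmedASXL_072993 stood at 0.564 CPM in the control, 2.89 CPM in light, and 2.31, 2.04 and 1.33 CPM after 1, 2 and 8 days. SmedASXL_011735 stood at 89.0 CPM in the control, 219 CPM in light, and 184, 161 and 144 CPM afterwards. The second was lower at each step with intervals that exclude 1, while for the first neither 1 day against light (0.799, 0.603 to 1.06) nor 2 days against 1 day (0.883, 0.663 to 1.18) could be separated from no change. Light was the highest value of both, and neither was back at the control after 8 days: the ratios to it were 2.36 (1.47 to 3.92) and 1.62 (1.56 to 1.68). SmedASXL_012269, at 19.5 CPM in the control, 44.6 CPM in light, and 48.6, 39.6 and 39.9 CPM afterwards, stood close under the limit at both 2 and 8 days, with 1.99 times the control at 8 days on the CPM + 1 scale.

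The 33 members that came under the limit only at 8 days were all still at least 2 times the control at 1 and 2 days, as the grouping requires. In log2 terms they stood at a median of -0.22, -0.27 and -0.74 against light at the 3 times, and between 2 and 8 days the median was -0.56. Of the 33, 10 were at least 2-fold lower after 8 days than after 2 days. Among all 88 members the number was 13, against 0.150% of all transcripts, with the 8-day library among those that chose the members. By then 3 of the 33 were under the control with intervals that exclude 1, and 29 were above it. After 8 days 28 of the 88 were at least 2-fold under light, against 0.268% of all transcripts, and 15 of these 28 belonged to the 33. After 2 days it had been 9 of the 88, against 0.0469%, and 2 of these 9 were among the 33. Light chose the members, and the rule puts every member under light at 8 days, so these shares over all transcripts give no reference.

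The largest light levels relative to the control were in this group. SmedASXL_013874 stood at 8.51 CPM in the control, 111 CPM in light, 79.6 and 68.4 CPM after 1 and 2 days, and 11.5 CPM after 8 days. Light, 1 day and 2 days were high together and the last library was near the control: it was 13.3% of the way back after 1 day, 19.4% after 2 days and 88.8% after 8 days. The ratio of 2 days to 1 day was 0.859 (0.819 to 0.901), and that of 8 days to 2 days was 0.169 (0.154 to 0.185).

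SmedASXL_074863 started at 0.880 CPM in the control and stood at 12.8 CPM in light, 7.01 and 5.00 CPM after 1 and 2 days, and 1.37 CPM after 8 days. It went down earlier, to 27.2%, 41.8% and 88.3% of the way back. The step from 1 to 2 days was a ratio of 0.712 (0.600 to 0.845).

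SmedASXL_002439 differed from both. It stood at 4.88 CPM in the control, 10.9 CPM in light, 24.1 and 44.4 CPM after 1 and 2 days, and 9.31 CPM after 8 days. Its highest values came in the dark rather than in light, and the light and 8-day levels were close (8 days to light 0.854, 0.746 to 0.979). It is a member by its levels in light and at 8 days, yet the ratio of 2 days to the control, 9.11 (7.92 to 10.5), was far larger than that of light to the control, 2.23 (1.89 to 2.65). In all, the 2-day library was the highest of the 5 for 8 members, 7 of them among the 33.

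**Figure D2:**
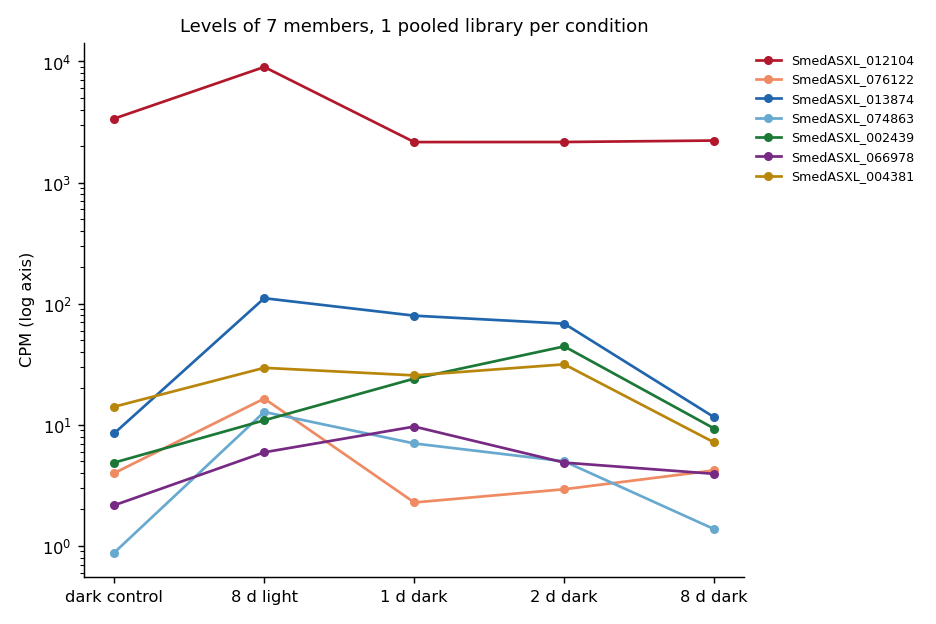
Levels in CPM (log axis) of 7 named members in each of the 5 libraries, with 1 point per library. SmedASXL_012104 and SmedASXL_076122 are high in light alone, SmedASXL_013874 and SmedASXL_074863 stay high through 2 days, and SmedASXL_002439 peaks at 44.4 CPM after 2 days.

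The size of the light difference went with the time at which members came under the limit. Of the 17 members at least 3 times the control in light, 3 were at least halfway back after 1 day and 14 came under the limit only at 8 days, with 0 in between. Much of this follows from the limit, which is fixed relative to the control, so that a member starting higher has farther to go. Among members not halfway back after 1 day, the median share of the log2 way back from light to control after 1, 2 and 8 days was 25.1%, 31.4% and 76.7% for the 14 at 3 times or more, and 16.0%, 21.8% and 44.6% for the 59 under 2.5 times. By these median shares the 14 were farther back than the 59 at each time, the reverse of the order by the limit. The 8-day shares are partly fixed by the rule. A member that starts higher must cover more of the distance to end under 2 times the control. The light library also enters all of these shares as well as the choice of members, so they are given with no reference value.

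**Figure D3:**
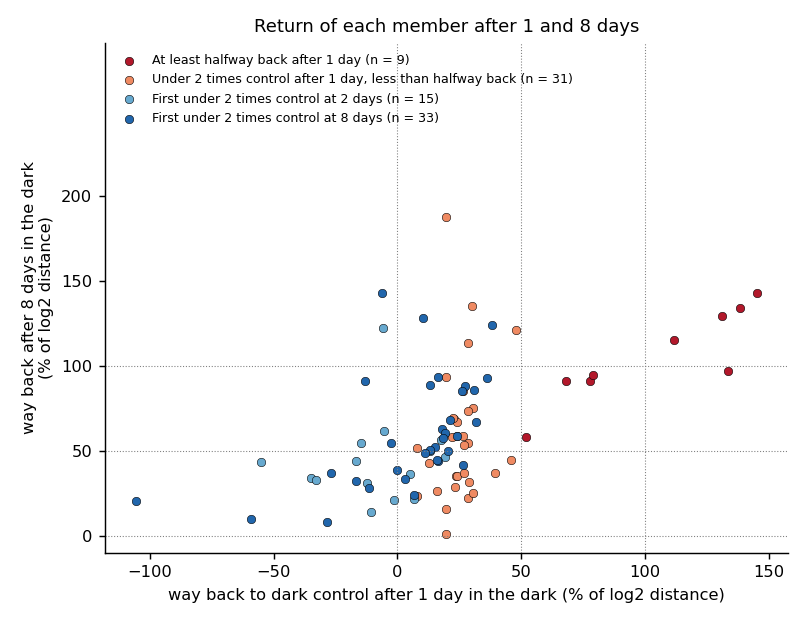
Each point is 1 member; the x and y axes give the share of the log2 distance from light to control covered by 1 day and by 8 days of dark return, in percent, where 0 is the light level, 100 the control level and negative values lie above light. The 9 points right of 50% after 1 day are all above 50% after 8 days, and 20 points lie left of 0, meaning a higher level after 1 day than in light.

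By 8 days, 49 of the 88 had covered 50% or more of the distance, compared with 9 after 1 day and 12 after 2 days. The median share covered was 19.5% at 1 day, 27.1% at 2 days and 54.5% at 8 days. Being back therefore mostly meant a partial return: 68 of the 88 still stood above the control after 8 days with intervals that exclude 1, 8 could not be separated from it, and 12 were under it. The 12 included 4 of the 9 early ones, 4 of the 31, 1 of the 15 and 3 of the 33. On the CPM + 1 scale the median log2 ratio of 8 days to the control was 0.59 for the 88 and 0.07 for all transcripts. Levels went down at every step from light through 1, 2 and 8 days for 42 of the 88, among them 2 of the 9 and 18 of the 33. The rule favours such a course, since it puts every member under light at 8 days. For 14 members the 8-day level was between 1.8 and 2 times the control, and 40 members were between 2 and 2.2 times the control in light, so a large part of the set lies near a limit of the rule. After 8 days 0.390% of all transcripts were at least 2-fold over the control, and the 49 transcripts that stayed up are part of them.

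The step from 1 to 2 days in the dark rests on the 2 libraries that did not enter the choice. The median log2 ratio of 2 days to 1 day was -0.11 for the 88, 0.01 for the 49 that stayed up and -0.01 for all 21307 transcripts. Of the 88, 64 were lower at 2 days, compared with 22 of the 49 and a fraction of 0.525 to 0.53 of all transcripts. With intervals that exclude 1, 36 of the 88 were lower and 8 higher, against 11.9% and 8.90% of all transcripts; of the 49, 13 were lower and 13 higher. The members have a median mean level of 11.7 CPM, all transcripts 8.87 CPM and the 49 52.7 CPM, and intervals are narrower at higher levels. The intervals hold no variation between pools, so these shares describe the 2 libraries.

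**Figure D4:**
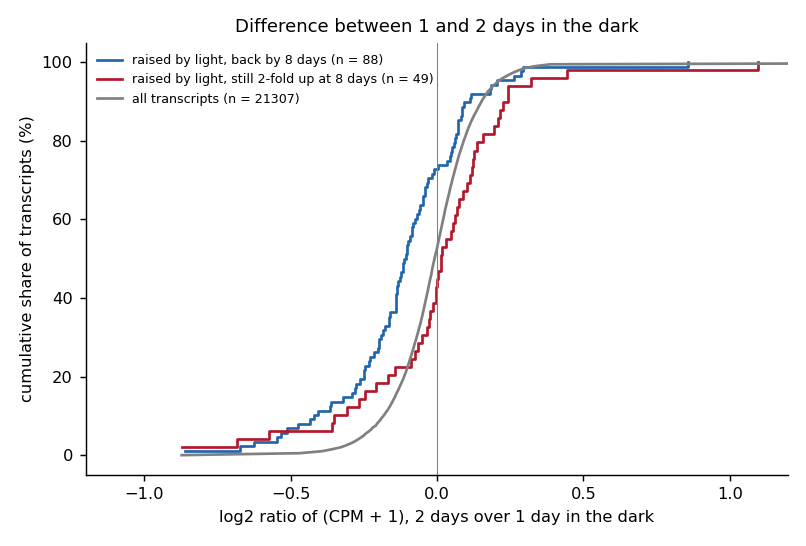
Cumulative share of transcripts (y axis, percent) by their log2 ratio of (CPM + 1) between 2 days and 1 day in the dark (x axis, shown from -1.2 to 1.2), for the 88 members, the 49 transcripts that stayed up and all 21307 transcripts. Through the middle of the range the curve of the members lies left of the others, with medians of -0.11, 0.01 and -0.01. In the tails it crosses them.

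Against light, the members that came down and those that stayed up were closer to each other after 1 day than later. The median log2 ratio of 1 day to light was -0.25 for the 88 and -0.18 for the 49, and 56 of the 88 and 28 of the 49 were lower with intervals that exclude 1, against 11.4% of all transcripts. Higher by that measure were 11 of the 88 and 12 of the 49, against 15.0% of all transcripts. Both sets were chosen on the light library. After 2 days the medians were -0.34 and -0.12. Relative to the control, 40 of the 88 and 10 of the 49 were under 2 times after 1 day, and 52 and 6 after 2 days, with medians of 1.05 and 1.36 after 1 day and 0.89 and 1.25 after 2 days. These ratios share the control, which also chose both sets.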

How the data were processed

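RNA of whole animals was poly(A)-selected and sequenced in 5 libraries, 1 per condition, each a mixture of 3 biological replicates. Per the series' design text, single-end reads of 50 bases were trimmed by 15 bases and aligned with bowtie2 to assembled contigs; bcl2fastq 1.8.3 and Bowtie2 2.2.4 are in the submitters' processing notes. How multiply matching reads were counted, and strand use, are not given in the sources used here, so contigs with shared sequence may share reads. A treatment protocol in the labels concerns another experiment (RNA interference) and was set aside. Per the file headers the deposited values are CPM plus 1; the authors' deposited ratio column equals control over light on that scale. Unused sample columns numbered 0. With 1 subtracted, 100% of values above 0 were whole reads to within 0.001 reads, and those reads gave the intervals; a count model was not fitted because no condition has a second library.

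Members were found by the rule with numpy 2.4.6, pandas 2.3.3 and scipy 1.17.1 in Python 3.11.15. The members and lists were chosen with earlier results of these data known. Named transcripts are the 2 extremes of each comparison, the 2 most abundant and those nearest each limit; the 50% division was listed as an alternative and became a description after its values were seen. The calculation was tested on simulated data with large differences in well-expressed transcripts and counting noise alone. Differences near a limit or in low transcripts were not simulated. Alternatives were other pseudocounts, mean levels, fold limits, scalings (trimmed mean of M-values and median of ratios) and definitions of coming down.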

Additional observations from a re-analysis of the deposited data

Results flagged for a closer look

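Of the members named, 4 stood above light early in the dark and below it after 8 days, with counting intervals on opposite sides of 1, a contrast of times that was not tested. A level below light after 8 days is required of every member by the rule. The log2 ratio of (CPM + 1) to light of SmedASXL_002439 was 1.08 and 1.93 at 1 and 2 days, and -0.21 at 8 days. That of SmedASXL_066978 was 0.62 after 1 day and -0.49 after 8 days. That of SmedASXL_078472 was 0.33 after 1 day and -0.33 after 8 days. That of SmedASXL_012269 was 0.12 after 1 day and -0.16 after 8 days, and its interval after 1 day excludes 1 by little (1.02 to 1.16).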

How the results depend on the processing

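No paired analysis was possible because each condition is 1 pooled library, and for the same reason no library could be left out. As reported, there were 88 members, with 40 and 52 under the limit after 1 and 2 days, 7, 9 and 28 at least 2-fold under light after 1, 2 and 8 days, and 9 halfway back after 1 day. With a pseudocount of 0.1 CPM, 82 were under the limit after 2 days and 15 halfway after 1 day; the set had 126 transcripts and held 72 of the 88. With 5 CPM the set had 40 (31 of the 88), with 18 and 24 under the limit after 1 and 2 days, 5 and 15 at least 2-fold under light after 2 and 8 days, and 5 halfway. With a mean of at least 10 CPM it had 47, with 21 and 29 under the limit, 3, 3 and 14 under light, and 3 halfway. Limits of 1.5-fold gave 429 (44 of the 88), with 213 and 268 under the limit, 15, 19 and 109 under light by 1.5-fold, and 38 halfway. Limits of 4-fold gave 14 (7 of the 88), with 10 and 11 under the limit, 1, 1 and 3 under light by 4-fold, and 1 halfway.

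Median log2 ratios to light after 1, 2 and 8 days were -0.14, -0.19 and -0.37 with 1.5-fold and -0.59, -0.75 and -1.32 with 4-fold limits. Those to the control were 0.59, 0.53 and 0.36, and 1.78, 1.58 and 0.94. The median of 2 days to 1 day was -0.059 and -0.16. With median-of-ratios scaling the medians of 1 day to light and of 2 days to 1 day were -0.31 and -0.057. Counted as down when halfway back, 9 members were down after 1 day and 12 after 2 days, and likewise 9 and 12 when also under the limit; at least 1.5-fold under light were 14 and 19. So 40 depends on the definition. No median changed sign under any of the 9 settings, which the rule itself requires of the 8-day median to light. The count of members halfway back was examined under these settings after the data were seen; the sets halfway back held 4 of the 9 with 5 CPM, 6 and 3 with means of at least 5 and 10 CPM, 0 with 4-fold limits, and all 9 under each of the other settings. The cause of these movements was not tested. The depth of 38447289 reads or more leaves counting intervals wide below about 1 CPM.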

Other observations

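Among the members, a single pair has adjacent transcript numbers, SmedASXL_074862 and SmedASXL_074863. For each read of the second, the first had 0.513 reads in the control, 0.507 in light, and 0.498, 0.604 and 0.606 after 1, 2 and 8 days, on 610 and 1147 reads in all. This pair was looked at after its values had been seen, and whether both contigs share reads was not tested. Some members also have a neighbour by number among the transcripts that stayed up. SmedASXL_074864 is next to SmedASXL_074863, SmedASXL_013873 to SmedASXL_013874, and SmedASXL_016117 to SmedASXL_016116. Whether these contigs share reads was not tested either.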
